A study of Mus musculus with 6 samples.

Results

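Of the places in adult mouse muscle chromatin where the transcription factor Maf was called, a large group lay away from gene starts and in no region called for the acetylation mark H3K27ac. These unmarked distal Maf peaks are the subject here. They were chosen from the Maf list of replicate 2 as the peaks with no base within 1 kb of a protein-coding transcript start and with no base inside a region of either H3K27ac list. There were 1635 of them among 5467 peaks (29.9%), and they made up 36.3% of the 4502 distal peaks. The other 2867 distal peaks, which overlapped an H3K27ac region by at least 1 base, are called marked distal peaks and served for comparison. The choice itself used the Maf call, the distance to gene starts and the H3K27ac lists, so values on these measures are given as descriptions with no test.

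Maf is a large Maf protein of the bZIP family, whose dimers bind the Maf recognition element (MARE), a palindrome of TGCTGA arms around a short centre. A single arm, TGCTGA or the longer TGCTGAC, is called a half-site, and large Maf proteins can bind one when the bases before it are rich in A and T. H3K27ac is laid down by the acetyltransferases p300 and CBP at active promoters and enhancers, and factors can also bind elements that lack it. In adult muscle Maf is known for its part in the genes of fast fibers.

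Chromatin came from nuclei of gastrocnemius and quadriceps muscles of wild-type mice aged 2 months. The series has 6 samples, namely 2 Maf immunoprecipitations, 2 H3K27ac immunoprecipitations and 2 inputs with no antibody, all from the same untreated genotype, and the labels call the 2 of each kind biological replicates. By the study's methods each sheared chromatin was divided between the Maf and H3K27ac antibodies after its input was taken, so samples with the same replicate number may share their nuclei, which the labels do not state. The authors called peaks sample by sample, which gave 74 and 5467 Maf peaks and 44887 and 44987 H3K27ac regions for replicates 1 and 2. Each Maf peak was 181 bp long in replicate 1 and 281 bp in replicate 2. The files hold positions on GRCm38 with no read counts, so the depth is unknown, and all intervals and p-values are over peaks of these lists and not over animals. The tissue label was checked on the H3K27ac lists: all 10 skeletal muscle fiber markers had H3K27ac within 1 kb of a start, and so did 6 of 6 macrophage, endothelial and fibro-adipogenic markers, 5 of 6 of satellite cells and 1 of 6 of T lymphocytes, against 0 of 6 for neurons and 0 of 6 for hepatocytes. Of all protein-coding genes, 58.3% had H3K27ac within 1 kb of a start. None of these markers had an unmarked distal peak within 50 kb, and only 7.57% of all protein-coding genes had one. The share of each cell type in the unmarked peaks was not tested.

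The highest of these peaks in the list stood at position 115, between genes and 35638 bp downstream of the start of Gatm, which encodes the first enzyme of creatine synthesis. It is shown whole because it was also called in replicate 1, with its single Maf half-site in capitals (GRCm38, here and below):
Gatm peak, chr2:122575525-122575805, plus strand: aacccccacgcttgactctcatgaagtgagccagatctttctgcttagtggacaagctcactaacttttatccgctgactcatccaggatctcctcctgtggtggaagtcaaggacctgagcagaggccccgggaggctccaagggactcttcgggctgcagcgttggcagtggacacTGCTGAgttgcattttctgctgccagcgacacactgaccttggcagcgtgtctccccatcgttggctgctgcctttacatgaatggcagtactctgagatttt
Windows of 60 bases follow for some of the first 20 unmarked peaks, each read on the strand of its half-site TGCTGA, which is in capitals. Those of Rpia, Tiam2, C2cd4a, Odf2, Prr15 and Gadd45a, which also had TGCTGA, are left out. The windows thus do not stand for all of the 20 peaks, but they show how differently the sequence after the half-site can run:
Armc2, chr10:42031153-42031212, plus strand: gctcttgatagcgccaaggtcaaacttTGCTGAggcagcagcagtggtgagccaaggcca
Olfr1368, chr13:21159005-21159064, minus strand: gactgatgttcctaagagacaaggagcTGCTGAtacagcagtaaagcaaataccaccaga
Txndc5, chr13:38533706-38533765, plus strand: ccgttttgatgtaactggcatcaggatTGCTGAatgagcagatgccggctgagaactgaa
Il10, chr1:131053316-131053375, minus strand: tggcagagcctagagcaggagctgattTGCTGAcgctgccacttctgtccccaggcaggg
Tcf7, chr11:52314614-52314673, plus strand: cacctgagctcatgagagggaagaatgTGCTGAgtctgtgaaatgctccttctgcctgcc
Fam3c, chr6:22494027-22494086, plus strand: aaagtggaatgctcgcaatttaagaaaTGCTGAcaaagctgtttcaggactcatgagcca
Sf3b5, chr10:13016753-13016812, plus strand: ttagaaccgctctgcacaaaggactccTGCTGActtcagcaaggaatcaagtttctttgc
The Armc2 window came nearest to the full palindrome of the T-MARE, with 12 of its 13 bases. The windows of Olfr1368 and Txndc5 matched 11 of them, those of Il10, Tcf7 and Fam3c 10, and that of Sf3b5 8. The Sf3b5 window was closer to the C-MARE, the palindrome with a centre of 2 bases. It held the C-MARE within the 2 mismatches allowed in the search. Not every high peak had a half-site, and the 200 bp around the centre of the peak at position 232, in an intron of the deadenylase gene Pan3, held none of the Maf motifs searched:
Pan3 peak, chr5:147542363-147542562, plus strand: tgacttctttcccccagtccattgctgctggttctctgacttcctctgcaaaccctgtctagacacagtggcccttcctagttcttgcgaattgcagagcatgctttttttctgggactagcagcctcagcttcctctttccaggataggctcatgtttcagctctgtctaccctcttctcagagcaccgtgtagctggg

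The unmarked distal peaks stood low in the list. Their median position was 4197, against 2073 for marked distal peaks, and when the list was cut into 10 equal parts, part 1 at the top held 25 of them (4.57% of its peaks) and part 10 held 360 (65.9%). The list has a score of 1 in every row and does not state that its order follows peak strength. Several measures below changed along the list, so the comparisons are also given within its 10 parts.

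**Figure D1:**
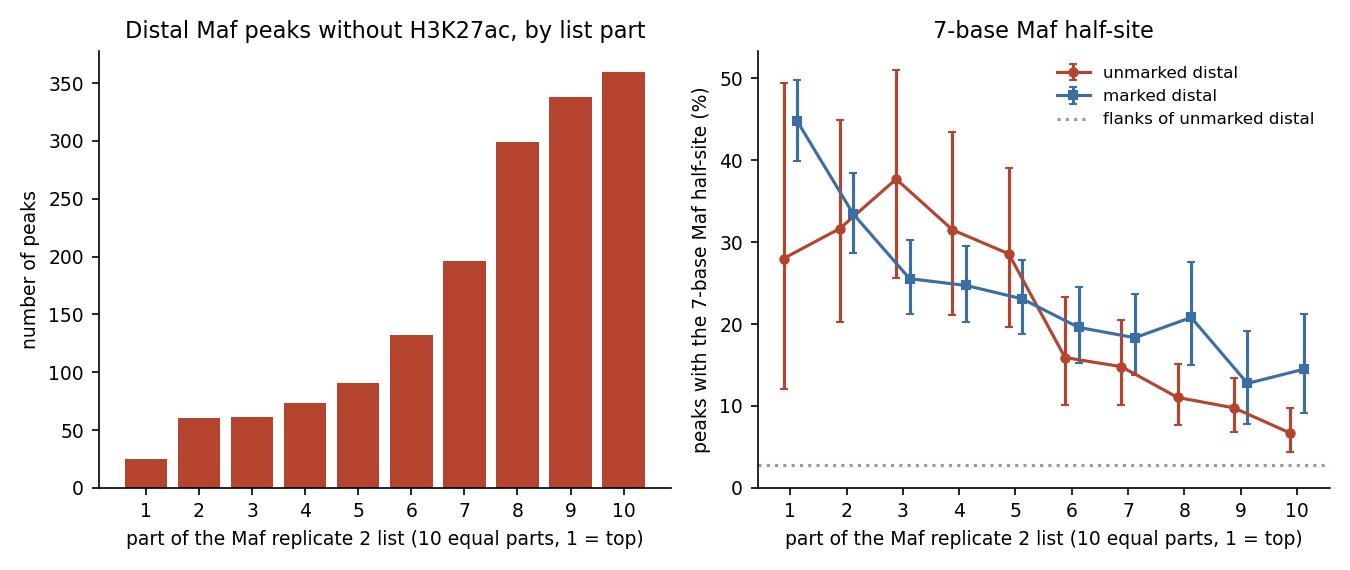
Left, number of unmarked distal Maf peaks (y) in each of 10 equal parts of the Maf replicate 2 list (x, 1 is the top), between 25 and 360. Right, percent of unmarked distal (red) and marked distal (blue) peaks with the 7-base Maf half-site in 200 bp around the centre, with 95% Clopper-Pearson intervals, and its share in the flanks of the unmarked peaks (dotted line). In part 1 the share was 28.0% of unmarked and 44.8% of marked peaks. The order was the other way in part 3, with 37.7% of unmarked and 25.5% of marked peaks. In part 10 it was 6.69% of unmarked and 14.5% of marked peaks.

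The members just inside and just outside the rule were close to it. The unmarked peak nearest to H3K27ac, nearest to H2al1j, lay 3 bp from a region, while the marked peak with the least overlap, in an intron of Stra6l, shared 2 bases with one. On the side of the gene starts, the closest unmarked distal peak was in an intron of Ccdc171, 1007 bp from a start, and an unmarked peak in Npas4 was left out at 969 bp. Most members were farther away. The gap to the nearest H3K27ac region had a median of 14701 bp, with 137 peaks (8.38%) within 1 kb and 294 beyond 100 kb. Of the marked distal peaks, 2689 (93.8%) were covered over their whole length.

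Maf half-sites were more frequent in the unmarked peaks than in the DNA beside them. TGCTGAC occurred on either strand in 238 of the 1634 peaks that lay on assembled chromosomes (14.6%, 95% Clopper-Pearson interval 12.9 to 16.4), in 200 bp around the centre. In windows of the same length 1 kb to either side it occurred in 2.85% (exact McNemar test, adjusted p = 2.32e-31). TGCTGA occurred in 609 peaks (37.3%), 2.73 times its share of 13.6% in the flanks. The T-MARE, the palindrome with a centre of 1 base, read with up to 2 mismatches, was found in 143 peaks (8.75%), against 0.643% of flanks. The NF-E2 site, which joins a half-site to the site of AP-1, occurred in 22 peaks (1.35%), against 0.0612% of flanks. Other sites, outside the Maf group, were also above the flanks. The AP-1 site TGANTCA, the element of the Fos and Jun proteins, was in 10.8% of peaks and 6.12% of flanks. The E-box CAGCTG, a site of the myogenic bHLH factors, was in 15.5% of peaks and 7.86% of flanks. In all 6 of 32 motifs (18.8%) passed an adjusted p under 0.05 against the flanks, all of them higher in the peaks. The motifs overlap: TGCTGAC and NF-E2 each contain TGCTGA, and NF-E2 contains an AP-1 site.

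Half-sites in the unmarked peaks lay near the peak centre. The median distance of TGCTGA from the centre was 25 bp in unmarked and 22 bp in marked distal peaks, and 50.7% of the unmarked peaks with the motif had it within 25 bp, against 54.9% of the marked ones. The bases around the half-site in unmarked peaks also differed from those around half-sites of the flanks. At the bases 2 and 3 before TGCTGA, A or T stood in 65.4% and 64.7% of 609 sites in unmarked peaks and in 65.9% and 65.0% of 1604 sites in marked peaks, against 53.4% and 55.6% of 446 sites in the flanks. This did not extend to the other bases before the half-site. At base 1 before it, A or T stood in 42.7% of unmarked and 37.8% of marked sites, below the 45.7% of the flanks, and at bases 4 to 6 the unmarked peaks had 51.2% to 54.8% and the flanks 52.0% to 56.1%. After the half-site, bases of the other arm of the palindrome were more frequent in unmarked peaks than in the flanks: G at base 5 in 38.8% against 24.2% and C at base 6 in 37.9% against 25.3%. These shares are descriptions with no test. A perfect T-MARE was present in 3 unmarked and 5 marked distal peaks.

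**Figure D2:**
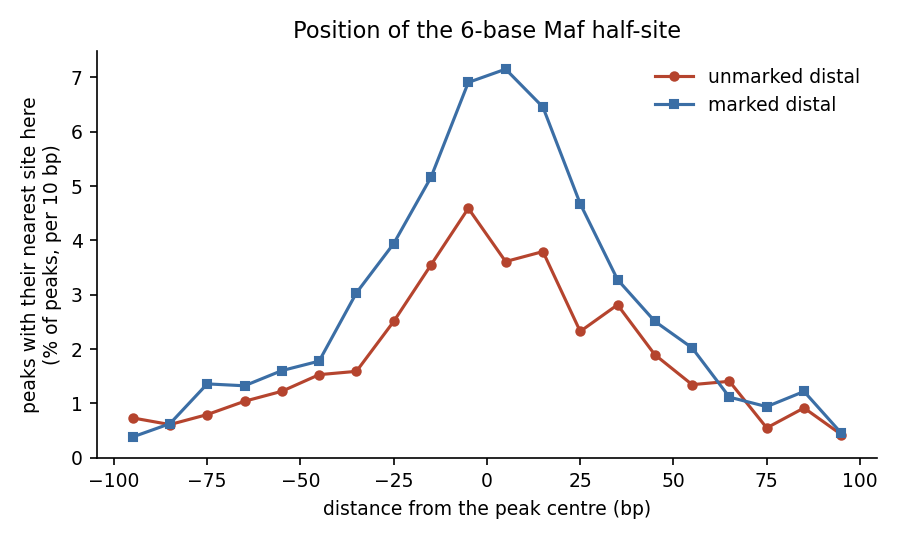
Percent of unmarked distal (red) and marked distal (blue) Maf peaks (y) whose 6-base Maf half-site nearest to the centre lay at each distance from it (x, in bp, in steps of 10 bp). Both curves are highest around the centre, where steps reach 4.59% of unmarked and 7.15% of marked peaks.

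A larger share of unmarked peaks had no Maf motif at all. At least 1 of the 5 Maf motifs searched (both half-sites, both MAREs and NF-E2) was in 640 unmarked peaks (39.2%) and in 1696 marked distal peaks (59.2%), against 13.9% in the flanks of the unmarked peaks. The other 994 unmarked peaks had none of them. TGCTGAC occurred in 14.6% of unmarked and 26.1% of marked distal peaks, with an odds ratio of 0.482 (p = 4.06e-20, two-sided Fisher's exact test). Over all 32 motifs, 13 differed between unmarked and marked distal peaks at an adjusted p under 0.05 (40.6%). Of these 11 (34.4%) were lower and 2 (6.25%) higher in unmarked peaks.

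The motifs lower in unmarked peaks included those of Maf and of muscle factors. TGCTGA was in 37.3% of unmarked and 55.9% of marked peaks. T-MARE was in 8.75% of unmarked and 14.8% of marked peaks, and CAGCTG in 15.5% of unmarked and 24.2% of marked peaks. C-MARE, the palindrome with a centre of 2 bases, NF-E2 and AP-1 were lower too, at odds ratios of 0.364, 0.469 and 0.690. TGCTGA and CAGCTG occurred together in 8.02% of unmarked and 13.4% of marked peaks, and in 1.10% of the flanks of unmarked peaks. The binding motif of Mef2, a MADS factor of muscle genes, was in 4.16% of unmarked and 7.64% of marked peaks (odds ratio 0.525, Fisher's exact test, adjusted p = 1.71e-05), and in 4.77% of the flanks of unmarked peaks. Against these flanks no difference was called for Mef2 (exact McNemar test, adjusted p = 1). The Sp1 box GGGCGG of GC-rich promoters was in 3.55% of unmarked and 6.49% of marked peaks. The MEF3 site TCAGGTT and the Nr4a site AAAGGTCA were lower as well (odds ratios 0.670 and 0.543), but lost this call in 8 of 14 and 9 of 13 alternative settings. The site AACAATG of Sox factors went the other way, with 2.82% of unmarked and 0.732% of marked peaks (odds ratio 3.93, Fisher's exact test, adjusted p = 6.58e-07). It was in 3.79% of the flanks of unmarked peaks and 2.98% of the flanks of marked peaks. Unmarked peaks were thus not above their own flanks, and marked peaks stood below theirs. Mean GC content was 45.2% in unmarked and 50.2% in marked peaks, and its part in the Sox and Sp1 results was not tested.

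**Figure D3:**
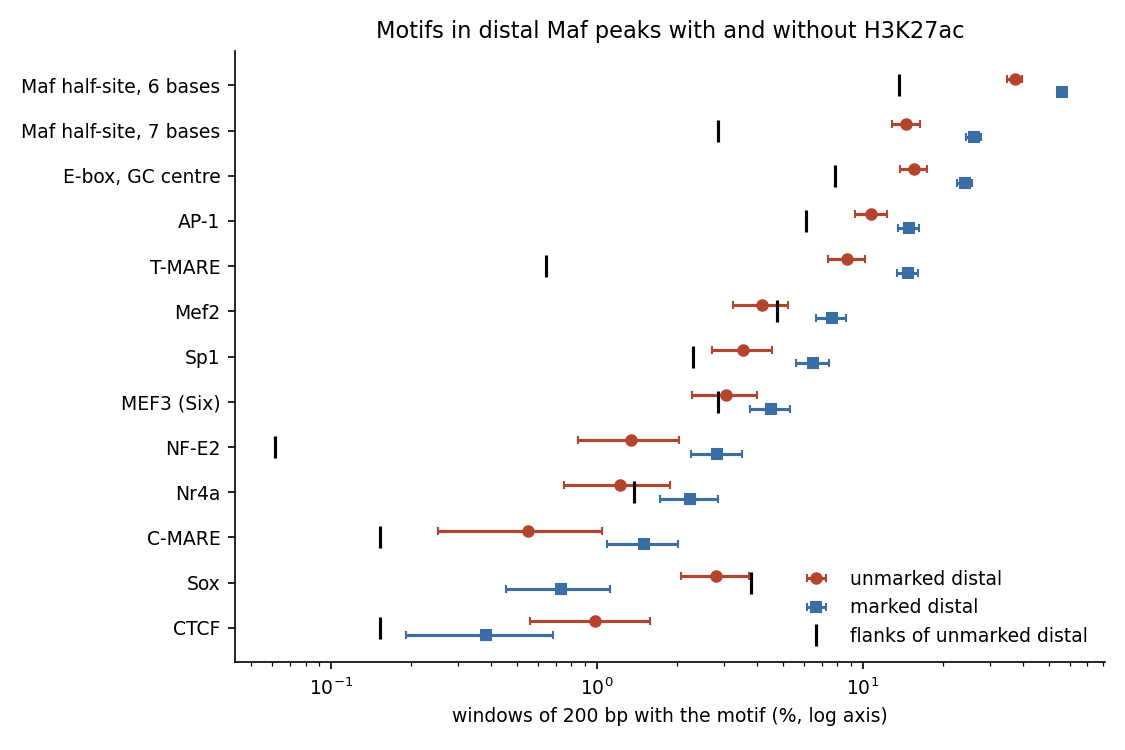
Percent of 200 bp windows (x, log axis) with each motif (y) in unmarked distal (red) and marked distal (blue) Maf peaks, with 95% Clopper-Pearson intervals, and in the flanks of the unmarked peaks (black strokes), for the motifs that differed in either comparison. The Maf half-site of 6 bases was in 37.3% of unmarked and 55.9% of marked peaks, while Sox and CTCF were higher in unmarked peaks.

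Within list parts most of these differences were smaller. In an exact Cochran-Mantel-Haenszel test over the 10 parts, the odds ratio for TGCTGAC was 0.848 (p = 0.0677), and only 3 of 32 motifs (9.38%) differed between unmarked and marked distal peaks. By this exact test they were Mef2 (odds ratio 0.588, adjusted p = 0.0131), Sox (2.62, adjusted p = 0.00497) and CTCF (6.26, adjusted p = 0.00423). In the first 2733 rows of the list, 98 of 310 unmarked peaks had TGCTGAC (31.6%), against 30.7% of marked peaks, and TGCTGA was in 67.7% of unmarked and 62.3% of marked peaks. T-MARE was there in 21.0% of unmarked and 16.4% of marked peaks, and in 1.13% of the flanks of unmarked peaks. For this upper part of the list 0 of 32 motifs differed between unmarked and marked peaks (Fisher's exact test, adjusted p under 0.05), with 3 at an unadjusted p under 0.05 (ETS, Sox and CTCF, each higher in unmarked peaks). Against their flanks 6 motifs were higher there, the same 6 as over the whole list.

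CTCF, the zinc finger protein that holds the ends of chromatin loops, was searched by a short core of its motif. This core was in 16 unmarked peaks (0.979%) and 11 marked distal peaks (0.384%), against 0.153% of the flanks of unmarked peaks. The odds ratio was 2.57 over the whole list (Fisher's exact test, adjusted p = 0.0426), a call that was lost in 9 of 13 alternative settings, and 6.26 within list parts as given above. Since this core is rare, a longer CTCF consensus of 14 bases was then searched with up to 1 mismatch. It was chosen after these values were seen, so it is given with no test. It was in 93 unmarked peaks (5.69%) and 59 marked distal peaks (2.06%), and in 0.520% of the flanks of the unmarked peaks. The gap depended on the mismatches allowed. With 0 mismatches the consensus was in 1.96% of unmarked and 0.488% of marked peaks, against 0.0918% of the flanks of unmarked peaks, and with up to 2 in 12.2% of unmarked and 9.59% of marked peaks, against 4.04% of these flanks. With up to 1 mismatch, in part 1 of the list 11 of 25 unmarked peaks had it (44.0%, interval 24.4 to 65.1), against 9 of 404 marked distal peaks (2.23%). Over parts 1 to 5 it was in 58 of 310 unmarked and 42 of 1853 marked peaks, and over parts 6 to 10 in 35 of 1324 unmarked and 17 of 1014 marked peaks. Windows of 54 bases around the consensus (capitals) are shown for the 3 highest peaks that had it:
Rpia, chr6:70812023-70812076, plus strand: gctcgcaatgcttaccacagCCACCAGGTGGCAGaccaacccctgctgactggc
Armc2, chr10:42031190-42031243, plus strand: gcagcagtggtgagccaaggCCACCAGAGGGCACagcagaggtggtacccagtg
Olfr1368, chr13:21158979-21159032, minus strand: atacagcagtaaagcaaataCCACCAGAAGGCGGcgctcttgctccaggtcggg
There the Rpia half-site TGCTGAC follows the consensus in the same window. Of the 93 peaks, 44 also had a Maf motif (47.3%), against 38.7% of the other 1541 unmarked peaks, but this order turned in the upper part of the list. There 33 of 58 peaks with the consensus had a Maf motif (56.9%), against 76.2% of the 252 without it, and over parts 6 to 10 the shares were 31.4% and 31.3%. The median distance to the middle of the peak was 48 bp for the consensus over the 93 peaks. For TGCTGA it was 11 bp, over only those of the 93 that held it. A sequence match is not a site in use, and CTCF binding was not measured in this series.

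**Figure D4:**
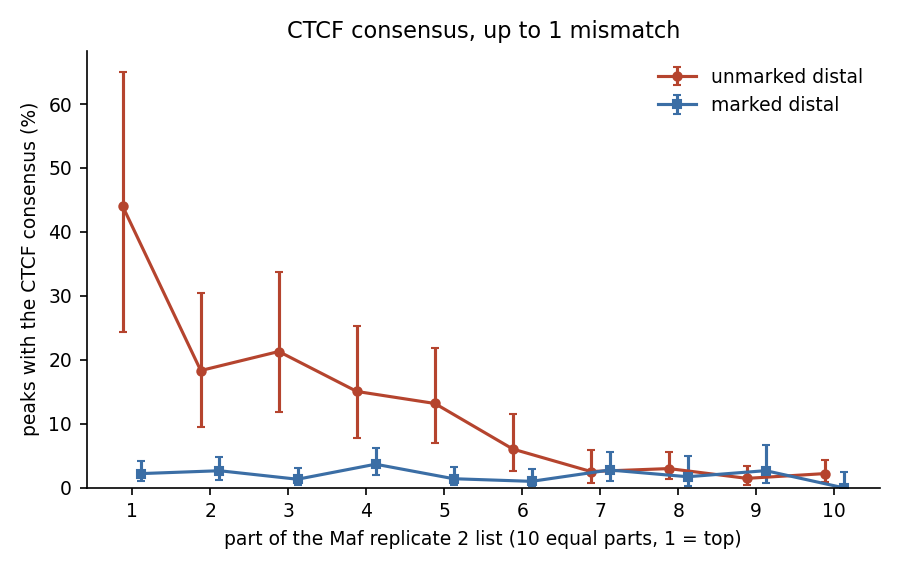
Percent of unmarked distal (red) and marked distal (blue) Maf peaks (y) with the 14-base CTCF consensus, up to 1 mismatch, in each of 10 equal parts of the Maf replicate 2 list (x, 1 is the top), with 95% Clopper-Pearson intervals. In part 1 it was 44.0% of unmarked and 2.23% of marked peaks, and in part 10 it was 2.23% of unmarked and 0% of marked peaks.

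More of the unmarked peaks lay between genes. Their centres were outside every protein-coding gene in 755 of 1634 peaks (46.2%, interval 43.8 to 48.7), against 39.1% of marked distal peaks (odds ratio 1.34, p = 3.25e-06 by Fisher's exact test). Within list parts the odds ratio was 1.31 (exact Cochran-Mantel-Haenszel p = 0.000208). Genes that code for no protein were not counted here. Another 50.1% of unmarked and 56.7% of marked peaks were in introns. Distance to starts was part of the rule, so it is given with no test. The nearest protein-coding start was more than 50 kb away for 733 unmarked peaks (44.9%) and 29.9% of marked distal peaks. Median distances were 40234 bp for unmarked and 24967 bp for marked peaks. Beyond 500 kb lay 94 unmarked peaks (5.75%) and 1.15% of the marked ones. In those 94 peaks TGCTGA occurred in 19.1%, and in the 258 unmarked peaks within 10 kb of a start in 39.5%.

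**Figure D5:**
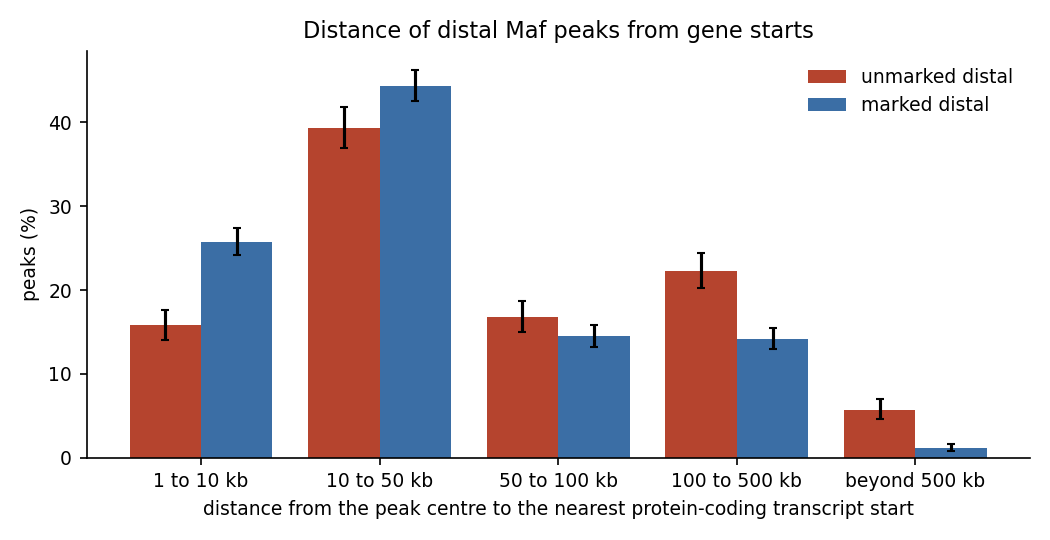
Percent of unmarked distal (red) and marked distal (blue) Maf peaks (y) by distance from the peak centre to the nearest protein-coding transcript start (x), with 95% Clopper-Pearson intervals. Within 10 kb lay 15.8% of unmarked and 25.8% of marked peaks, and from 100 to 500 kb lay 22.3% of unmarked and 14.2% of marked peaks.

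More of the unmarked peaks lay in repeats. The reference genome marks repeats by soft-masking, and over 50% of the 200 bp window was masked in 176 unmarked peaks (10.8%) and 3.63% of marked distal peaks, against 19.3% of the flanks of the unmarked peaks. This comparison was added after the data were seen (odds ratio 3.21, Fisher's exact test, p = 1.69e-20). It was 2.06 within list parts (exact Cochran-Mantel-Haenszel p = 1.83e-06) and 1.52 in the upper part of the list, where the call was lost (p = 0.206). How reads that match several places were treated is not given in the sources used here. On the X chromosome stood 2 unmarked peaks, against 36 marked distal peaks, and the other chromosomes that held any had 30 to 134 unmarked peaks each.

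Few unmarked peaks were called in both Maf samples. A peak of replicate 1 overlapped 6 of 1634 unmarked peaks (0.367%, interval 0.135 to 0.798) and 44 of 2867 marked distal peaks (1.53%, odds ratio 0.236, p = 0.000163 by Fisher's exact test). The replicate 1 list holds only 74 peaks, so an absence from it says little about a single peak. Of the 6 shared peaks, 5 stood in part 1 of the list, where 5 of 25 unmarked and 36 of 404 marked peaks were shared. Within list parts the odds ratio was 1.57 (exact Cochran-Mantel-Haenszel p = 0.404), so that the direction turned and the call was lost. Of the 6 peaks, 5 were nearest to Gatm (position 115), the olfactory receptor gene Olfr1368 (276), the transcription factor gene Tcf7 (318), the centriole appendage gene Odf2 (394) and the splicing regulator gene Mbnl2 (4013). All 5 were between genes and had TGCTGA, and the Odf2 peak also had TGCTGAC.

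The same rule applied to replicate 1 alone gave 25 unmarked distal peaks of 74. Of these 7 had a replicate 2 peak, against 43 of 44 marked distal peaks of that list. TGCTGAC was in 2 of the 25 unmarked and 21 of the 44 marked peaks (odds ratio 0.0952, Fisher's exact test, p = 0.0011). The unmarked peaks stood lower in that list, with a median position of 60 against 24.5 for the marked ones. No comparison within parts of that list was made. TGCTGA was in all 7 unmarked peaks that had a replicate 2 peak and in 6 of the 18 that had none. Those 18, nearest to genes such as Myc, Serpinb8 and Cdh18, had a median position of 61.5 in that list, and 0 of them had a T-MARE.

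At the top of the list the nearest genes were of many kinds. Of the first 20 unmarked peaks, 18 were between genes, 14 had TGCTGA and 9 the CTCF consensus, and 6 of these had both. After Gatm came Rpia, an isomerase of the pentose phosphate pathway, with a peak 19829 bp upstream of its start at position 118, and Armc2, needed for the sperm flagellum, at 184. Farther down were peaks upstream of Txndc5, a disulfide isomerase of the endoplasmic reticulum (277), and of the Rac activator gene Tiam2 (300). The peak nearest to the cytokine gene Il10 (303) had TGCTGAC, as had those nearest to Fam3c (332) and the splicing factor gene Sf3b5 (410). The peak nearest to the mevalonate kinase gene Mvk (363) had CAGCTG and no TGCTGA. The peak at position 400, in an intron of Gng12, was nearest to the start of Gadd45a, a growth arrest gene that denervated muscle induces, and lay 186 bp from an H3K27ac region. Others of the first 20 were nearest to Serp2, C2cd4a, Rlf, Ppp1r16b, Prr15 and Cd55b.

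Most nearest genes had 1 unmarked peak. The 1634 peaks had 1398 nearest genes, of which 1224 had 1 peak, 130 had 2 and 44 had 3 or more. The 10 with the most were Atxn7l3b, Celf2, Marcks, Pik3c3 and Tns1 with 5 each and Adgrl2, Auts2, Ccser1, Gadd45a and Mef2c with 4 each. The 5 peaks of Celf2, an RNA-binding splicing regulator, were all inside that gene. Those of Atxn7l3b spread over 570 kb outside the gene, stood at positions 4573 to 5179 and had no TGCTGA. All 4 peaks nearest to Gadd45a had TGCTGA, and they stood at positions 400 to 2779. The 4 peaks of Mef2c, a Mef2 factor of muscle, stood at positions 3562 to 5238, and TGCTGA was in 2 of them. A start of the nearest gene had H3K27ac within 1 kb for 71.7% of unmarked and 87.2% of marked distal peaks, counted over peaks. Counted over genes, 992 of the 1398 nearest genes of unmarked peaks had such a start, compared with 58.3% of all 21827 protein-coding genes.

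The gene lists were read against the shares of all genes, with no test, and lists can share genes and peaks. An unmarked distal peak lay within 50 kb of a start of 1652 protein-coding genes (7.57%), and a marked distal peak within 50 kb of 3281 (15.0%). Of 31 genes of the sarcomere of fast fibers, their contractile unit, 1 had an unmarked peak (3.23%) and 26 a marked one (83.9%). The unmarked one was in an intron of Nrap, which encodes an actin anchor at the tendon junction, with TGCTGAC and 498 bp from H3K27ac. Of 28 genes of glycolysis, glycogen and creatine kinase, 4 had an unmarked peak (14.3%) and 19 a marked one, with unmarked peaks in introns of Pgm1 and Ugp2 and one near Ldha that lay in its neighbor Ldhc. Of 32 genes of calcium handling, 3 had an unmarked peak (9.38%) and 16 a marked one. The highest was in an intron of Ryr3, a ryanodine receptor, at position 943, with TGCTGAC and 252710 bp from the nearest H3K27ac region. The other unmarked peaks of this list were upstream of Asph and of the calmodulin kinase gene Camk2a.

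Of 25 genes of developmental muscle and fusion, 6 had an unmarked peak within 50 kb (24.0%, against 7.57% of all genes) and 5 a marked one (15.0% of all genes had one). The peak of Mymk, the myomaker gene of myoblast fusion, was between genes and 3499 bp upstream of its start, at position 3329, and had both TGCTGAC and CAGCTG. It lay 11989 bp from H3K27ac, and no start of Mymk had the mark. The peak of Actc1, the cardiac actin that embryonic skeletal muscle also makes, lay 18969 bp upstream and had TGCTGAC. The peak near Chrng, the fetal acetylcholine receptor subunit, was in an intron of Eif4e2 and had no half-site. It was also the peak counted for Chrnd, the adjacent delta subunit, so that 4 of 18 neuromuscular junction genes were counted (22.2%), and for marked peaks it was also 4. Of 18 slow fiber genes 2 had an unmarked peak (11.1%) and 6 a marked one (33.3%). The unmarked one near Myl2, the slow myosin light chain, was in its neighbor Ccdc63 and had TGCTGAC.

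Of 19 circadian and PAR bZIP genes, 3 had an unmarked peak (15.8%, against 7.57% of all genes) and 9 a marked one (47.4%, against 15.0%). The unmarked peaks were upstream of Arntl and Clock, the partners of the core clock, and near Nr1d1, a repressor of Arntl, at positions 3856, 4333 and 3961, and none had a half-site. Of 5 adult myonuclear factors 2 had an unmarked peak, Nr4a1 and Esr1, and 4 a marked one. Of 24 myogenic and Mef2 factors 2 had an unmarked peak, Mef2b and Eya3, and 7 a marked one. Of 14 Maf, Bach and cap-n-collar factors only Bach2 had an unmarked peak, and 3 had a marked one. Insulin and atrophy signalling had unmarked peaks for 2 of 24 genes, near Akt2 and in Smad3, and marked ones for 14. Oxidative metabolism had unmarked peaks for 2 of 29 genes, at Cox6a2, whose peak was 86 bp from H3K27ac, and at Esrrb. Marked peaks were counted for 13 of those 29.

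Lists of other cell types and tissues had counts of 0 to 2, or 0% to 13.3% of their genes, on both sides of the 7.57% of all genes. Macrophage genes had 1 of 20 (Lyve1), T lymphocyte genes 1 of 20 (Il10), endothelial genes 1 of 20 (Mecom, with 3 peaks) and satellite cell genes 2 of 18 (Sdc4 and Cd82). Liver genes had 1 of 22 (Apoh), housekeeping genes 1 of 29 (Emc7) and neuronal adhesion genes 2 of 30 (Nrxn3 and Rbfox1). Potassium channel genes had 1 of 27 (Kcnn3) and fibroblast growth factor genes 2 of 15 (Fgf1 and Fgf5). Fibro-adipogenic and tendon genes had 0 of 20 and lens crystallin genes 0 of 16.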

How the data were processed

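The members, motifs and gene lists were chosen with earlier results of these data known. Per the labels, chromatin of formaldehyde-fixed nuclei was sheared by sonication, and the submitters' processing notes name bcl2fastq 2.17, FastQC, Bowtie2 2.3.2, Picard 2.10.3, HOMER and the builds mm10 and GRCm38. The study's text gives a false discovery rate limit for its Maf peaks and HOMER as its motif tool. The peak caller, its other settings and the use of the inputs are not given in the sources used here. In the deposited lists the authors' score is 1 for every peak, so the order of the list was used in its place. The inputs were not used here. Peaks were compared with GENCODE M21 (basic set, 41433 protein-coding transcript starts of 21827 genes) and with the RefSeq sequence of GRCm38. The 1 member on an unplaced scaffold was left out of sequence and gene comparisons. Places and nearest genes were taken from peak centres. Distances to starts are signed by the strand of the gene.

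The motif search covered both strands of 200 bp at each peak centre and allowed up to 2 mismatches in both MAREs. Besides the motifs named in the text these were CRE (TGACGTCA), PAR bZIP (TTANGTAA), C/EBP (TTGCNNAA), E-boxes with other centres (CACCTG, then CATCTG, then CACGTG), CArG, Tead (CATTCC), ETS (CCGGAAGT), PU.1 (GAGGAAGT), AGATAAG for the GATA factors, Runx (TGTGGT), Forkhead (TGTTTAC), NFI, ERR (TCAAGGTCA), the glucocorticoid receptor half-site (AGAACA), REST, NF-Y (CCAATCA) and NRF1. Mef2, CArG and the long CTCF consensus hold degenerate letters. Unmarked and marked peaks were compared by Fisher's exact test or, over 10 list parts, the exact conditional Cochran-Mantel-Haenszel test with the pooled odds ratio, and peaks with flanks by the exact McNemar test with the larger p of both sides, with Benjamini-Hochberg adjustment over 32 motifs. The share beyond 50 kb, planned with Fisher's exact test, is given with no test, since the rule used distance. Motif search, overlap and tests were tested on simulated data. Alternatives changed the distance to starts, the annotation, the overlap with H3K27ac, the lists used, the motif window, the flanks and the distance to genes.

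Named genes were those nearest to the first 20 unmarked distal peaks and to those shared with replicate 1, up to 3 genes of each list whose peak stood highest, and the 10 genes nearest to the most such peaks. Genes named for the limits of the rule and from the replicate 1 list were chosen after their values were seen. The result for 1 gene is not reported here. Python 3.11.15, pandas 2.3.3, SciPy 1.17.1, statsmodels 0.14.6 and matplotlib 3.10.9 were used.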

Additional observations from a re-analysis of the deposited data

How the results depend on the processing

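The intergenic share kept its direction and call in 11 of 12 alternatives, and without the Maf list of replicate 2 it was 2.57 with an exact p of 0.0839 (1.28 to 2.57 over the left-out lists). In the upper part of the list the odds ratio for TGCTGAC turned to 1.04, and those for TGCTGA, T-MARE, AP-1 and CAGCTG to 1.27, 1.36, 1.17 and 1.07, none of them called. In the same part the number of members was 310, the replicate 1 overlap 0.690 (exact p = 0.536), the odds ratio for masked windows 1.52, the number of motifs called against marked peaks 0 and the number of genes within 50 kb 369. Within list parts TGCTGAC had 0.848, replicate 1 overlap 1.57 and 3 motifs were called. Position was among the inputs of these settings, and why motifs follow it was not tested. Leaving out a list gave 25 to 1793 members, 0.0952 to 0.563 for TGCTGAC, 1 to 12 motifs against marked peaks, 0 to 6 against flanks (McNemar, with 1, TGCTGA, at an unadjusted p under 0.05 for the lowest) and 14 to 1829 genes, the lowest each time without the Maf list of replicate 2. Leaving out an H3K27ac list gave 0.206 to 0.285 for the replicate 1 overlap and 3.16 to 3.22 for masked windows. The replicate 1 overlap has no value without the Maf list of replicate 2, nor have masked windows, where no marked peak was masked. Of 111 alternatives over all these comparisons and counts, 96 kept direction and call, 4 lost the call, 2 turned and 9 moved a count (12 of the 96 are of the share beyond 50 kb, which is given with no test). For single motifs 115 of 162 kept both, 43 lost the call and 4 turned. Within 10 kb in place of 50 kb the number of genes was 296. The full annotation, tried after the data were seen, gave 1625 members, 14 motifs called against marked peaks in place of 13 and 7 against flanks in place of 6, and the comparisons of a single share kept their calls. No paired analysis was possible because the tests run over peaks of 1 list, with no fit over samples. With the H3K27ac list of replicate 2 alone, which may share its chromatin with the Maf list used, there were 1793 members, 0.496 for TGCTGAC and 12 motifs called against marked peaks. An absent H3K27ac call does not show that the mark is absent, since the lists give no depth, and the order of the list is an uncertain stand-in for strength.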
